A study of Homo sapiens with 12 samples.

Results

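The MYC, MAX and MXD network is a set of transcription factors that pair with each other through a basic helix-loop-helix leucine zipper. Its 10 members were taken by gene symbol, with no measured value used, as MYC, MAX, MXD1, MXD3, MXD4, MXI1, MNT, MGA, MLX and MLXIP. All 10 were found among the 60675 gene IDs of both deposited count tables. The RNA-seq test covered all 10 members and the BRIC-seq tests covered 9, since MXD4 had too few labelled counts.

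MYC activates growth, ribosome and metabolic genes, and it binds DNA only as a dimer with MAX. The MXD proteins (MXD1, MXI1, MXD3 and MXD4), MNT and MGA dimerise with the same MAX and recruit repressors to the same E-box sites, so MYC and its antagonists compete for a shared partner. A parallel branch is built on MLX, which pairs with MLXIP (also called MondoA), a sensor of glucose phosphates. MYC mRNA is the classic short-lived message, and MYC is a growth driver in melanoma.

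The overexpressing cells were A375 (MIR211 overexpressing), called the MIR211 line here, and they were set against A375, their parent, a human melanoma line with an activated BRAF gene. MIR211 encodes the microRNA miR-211. RNA-seq of total RNA was done on 2 libraries of the MIR211 line and 2 of A375, with the letters a and b in each line. In BRIC-seq, cells of both lines were fed 5-bromouridine (BrU) for 24 h, the label was then withdrawn, and labelled RNA was pulled down after 0, 1, 3 and 6 h of chase, with 1 library per line and time. The labels do not say whether the MIR211 line is a clone or a pool, nor whether each library is a culture of its own, so p-values cover no more than the spread between these samples, and that spread may be technical. Only 1 overexpressing line was set against 1 parent, so miR-211 and any other trait of the MIR211 line cannot be told apart.

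MIR211 itself had 36 and 18 counts in the RNA-seq libraries of the MIR211 line and none in those of A375, and 9, 11, 2 and 3 BRIC-seq counts over the chase in the MIR211 line against 0 at every time in A375. These are counts of RNA from the gene locus, and the mature miRNA was not measured. RNA-seq totals came to 34.1 M and 30.5 M counts for the MIR211 line, against 20.8 M and 28.4 M for A375. The BRIC-seq libraries held 2.78, 4.53, 6.26 and 6.66 M counts at 0, 1, 3 and 6 h in the MIR211 line and 2.67, 3.95, 6.81 and 7.28 M in A375, so depth grew along the chase. All 8 melanocyte lineage markers had RNA-seq counts, with a summed level of 384 to 425 CPM (counts scaled to library size, per M) in the MIR211 line and 485 to 492 CPM in A375. MITF, the master regulator of that lineage, was the 1 marker that passed the RNA-seq test, with a log2 difference of -2.50 (edgeR adjusted p = 0.0448). Of the 6 lineage markers tested, 4 lay below 0 and 2 above. Those above were S100B (log2 1.66, edgeR adjusted p = 0.0533) and SOX10 (0.55, adjusted p = 0.393). Among the markers of other cell types, the summed level of 5 fibroblast markers in BRIC-seq was 26.9 to 149 CPM in the MIR211 line and 2.33 to 14.5 CPM in A375, whereas in RNA-seq it was 25.8 to 26.9 CPM in the MIR211 line and 26.1 to 61.3 CPM in A375. Within that list COL1A2 averaged 0.377 CPM in the MIR211 line and 34.1 CPM in A375 in RNA-seq, whereas LUM averaged 12.1 CPM in the MIR211 line and 4.90 CPM in A375. The sum of 4 endothelial markers was 27.5 to 46.7 CPM in the MIR211 line and 1.06 to 4.12 CPM in A375 in BRIC-seq, and 6.04 to 9.19 CPM in the MIR211 line and 3.58 to 4.18 CPM in A375 in RNA-seq. In BRIC-seq 2 of these 4 were at 0 in every library, and only KDR, a receptor gene, had enough counts for the test. Of 4 leukocyte markers 3, PTPRC among them, were at 0 in all 12 libraries. The remaining one, LYZ, had 6.54 to 51.5 CPM in the MIR211 line and 1.69 to 7.43 CPM in A375 in BRIC-seq, and 0.809 to 1.41 CPM in the MIR211 line and 1.36 to 2.95 CPM in A375 in RNA-seq. Of 4 keratinocyte markers the sum was 1.39 to 2.70 CPM in the MIR211 line and 1.21 to 4.12 CPM in A375 in BRIC-seq, and 16.8 to 18.3 CPM in the MIR211 line and 15.2 to 20.4 CPM in A375 in RNA-seq. The part of any of these markers in the results was not tested, and in such bulk samples fewer cells of a type and less RNA per cell cannot be told apart.

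Because the lines differ by a microRNA, the sites in the members that match its seed are shown first. The seed, bases 2 to 8, stands in capitals in the mature miRNA from RefSeq (GRCh38.p14). Below it are 30-base windows of the 3′ UTR of each Ensembl canonical transcript (GENCODE 44, hg38), with the match in capitals. In MXI1, MGA and MNT the capitals pair with bases 2 to 8, and in MLXIP they also include an A opposite base 1. In MXD3, shown for the other kind of match, they pair with bases 2 to 7 and include an A opposite base 1, and base 8 is not paired.

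hsa-miR-211-5p: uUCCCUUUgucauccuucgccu

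MLXIP, chr12:122142076-122142105, plus strand: cagcccacacaAAAGGGAAgtgctggccgt

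MLXIP, chr12:122146569-122146598, plus strand: ttcgagaaagaAAAGGGAActcttcacgtt

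MXI1, chr10:110285584-110285613, plus strand: gaagccttttgAAAGGGAtcatcatgcagc

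MGA, chr15:41767708-41767737, plus strand: tggacttgtgcAAAGGGAtccagaagagac

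MNT, chr17:2385120-2385149, minus strand: ctggtgtgggtAAAGGGAcagttacaaacc

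MXD3, chr5:177307388-177307417, minus strand: caggccctctggAAGGGAAggggcaggact

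Of the 10 members, 7 held a match of either kind, and 4 of them, MLXIP, MXI1, MGA and MNT, held one to the whole of bases 2 to 8. MLXIP held 4 in a 3′ UTR of 5532 bases, and the 2 windows shown are its matches of 8 bases. MXD1, MXD3, MXI1, MNT, MGA and MLX held 1 each, and MYC, MAX and MXD4 held 0. Over 19559 canonical transcripts with a 3′ UTR, whose median length was 1064 bases, 25.5% held a match of either kind, 17.3% held one to bases 2 to 8 and 8.05% held one of 8 bases. The members' 3′ UTRs ran from 378 bases in MXD3 to 5532 in MLXIP, and longer UTRs hold more matches by their length alone. A match describes the letters and is not a measured site.

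The second set of sequences is the E-box, CACGTG, which the dimers of the network bind. It was searched between 250 bases before and 50 bases after the RefSeq start sites (GRCh38.p14), where 1 strand serves for both because the motif is its own reverse complement. It lay in 3 of the 14 promoters found for 9 members, those of MLX, MNT and MXD4, and in 7.26% of 35116 promoters overall. The windows carry the E-box in capitals.

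MLX, chr17:42567038-42567067, plus strand: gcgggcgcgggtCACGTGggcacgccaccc

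MNT, chr17:2401236-2401265, minus strand: ccctgcccgggcCACGTGtgcgcgcgccgg

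MXD4, chr4:2262330-2262359, minus strand: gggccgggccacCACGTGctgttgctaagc

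Counted from the start site, the first base of the E-box lay at -50 in MLX, -193 in MNT and -238 in MXD4. No binding was measured in this series, and no match says only that these letters are not in the window.

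RNA-seq asked whether the steady level of each member differed between the lines. None of the 10 members passed the test between the MIR211 line and A375 (edgeR quasi-likelihood test, Benjamini-Hochberg adjusted p under 0.05), where 0.379% of all genes tested passed. No member reached an unadjusted p under 0.05 either, and DESeq2 also called 0 members, although it called 748 genes against 73 in edgeR. The members' median log2 difference was -0.06, beside 0.00 for all genes, and 4 values lay above 0 and 6 below.

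Divided by exonic length, the RNA-seq levels had a clear top and a crowded bottom. The length counts every annotated exonic base of a gene, not 1 expressed transcript, so the order also depends on the annotation. MLX, the partner of MLXIP, led with 20.7 to 24.0 CPM per kb over the 4 libraries, followed by the MAX-binding repressor MXI1 at 9.29 to 12.7 CPM per kb and by MGA, a giant protein that scaffolds a Polycomb complex, at 5.52 to 6.13 CPM per kb. Those 3 ranges did not overlap. MAX, the shared partner, lay at 2.95 to 5.66 CPM per kb, which overlapped both MGA and MXD4, a MAX-binding repressor of differentiating cells, at 2.32 to 3.19 CPM per kb. MYC spanned 0.344 to 2.67 CPM per kb and overlapped MXD4, MXD1 (0.524 to 2.30), MXD3 (0.466 to 1.77), MLXIP (0.979 to 1.38) and MNT (0.573 to 0.802). The mean over 4 libraries was 4.35 CPM per kb for MAX and 1.32 CPM per kb for MYC.

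**Figure D1:**
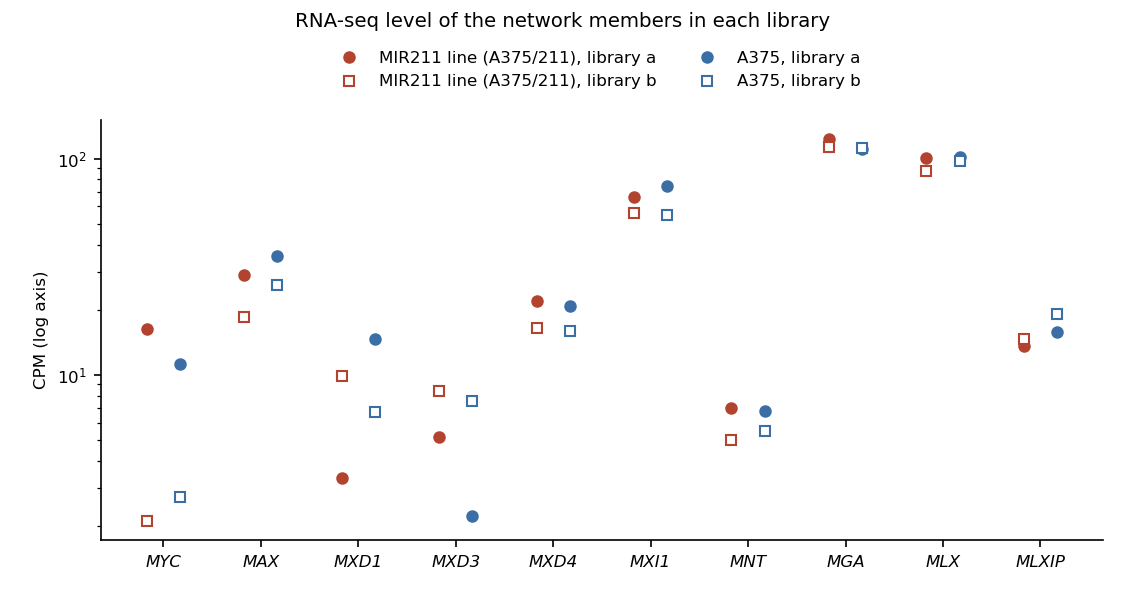
RNA-seq level of each member in each of the 4 libraries, in CPM on a log axis, with the MIR211 line left of A375 and library a filled and library b open. MYC varied from 2.103 to 16.3 CPM within the MIR211 line, more than between the lines, while MGA and MLX stayed within a narrow range.

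MYC (ENSG00000136997, chromosome 8, 127735434 to 127742951 in GENCODE 44, hg38, plus strand) had 16.3 and 2.103 CPM in libraries a and b of the MIR211 line, against 11.2 and 2.71 CPM in libraries a and b of A375. In each line the library labelled a was far above the library labelled b, and the lines overlapped. The difference between the lines, a log2 value of 0.42 with a standard error of 1.10 (edgeR adjusted p = 0.956), was smaller than the difference within either line. Library b held 0.131 times the MYC level of library a in the MIR211 line and 0.246 times in A375, and 0.389% of the 19258 genes tested differed as much and the same way in both lines. MXD3, a MAX-binding repressor expressed in proliferating cells, ran the other way, with 5.15 and 8.38 CPM in libraries a and b of the MIR211 line and 2.21 and 7.55 CPM in A375. MXD1, the founding MYC antagonist, had 3.33 and 9.80 CPM in libraries a and b of the MIR211 line and 14.6 and 6.68 CPM in A375, so its direction between letters was opposite in the lines.

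Target genes of the MLXIP branch also differed between libraries a and b. TXNIP, the arrestin that restrains glucose uptake and is the best-known MondoA target, had 21.9 and 220 CPM in libraries a and b of the MIR211 line and 26.1 and 241 CPM in A375. ARRDC4, its close relative and another MondoA target, had 5.83 and 25.5 CPM in libraries a and b of the MIR211 line and 10.5 and 36.9 CPM in A375. Library b thus held 10.02 times the TXNIP level of library a in the MIR211 line and 9.20 times in A375, where MLXIP itself held 1.07 and 1.21 times and MLX 0.874 and 0.955 times. As large a same-way difference in both lines was found for 0.203% of genes at the size of TXNIP and 0.478% at the size of ARRDC4. Neither gene passed the test between the lines (adjusted p = 0.987 for TXNIP and 0.901 for ARRDC4). Of 52 tested MYC-activated target genes, 32 were higher in library b in both lines and 3 were lower in both, beside 32.2% of all genes higher and 34.1% lower in both. The labels do not say what the letters stand for, and what differed between the libraries was not tested.

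The remaining members were steadier. MGA averaged 118 ± 6.70 CPM in the MIR211 line and 111 ± 0.671 CPM in A375 (SD, n = 2 each), and MLX averaged 94.3 ± 8.98 CPM in the MIR211 line and 99.8 ± 3.26 CPM in A375. MXI1 averaged 61.1 ± 7.37 CPM in the MIR211 line and 64.8 ± 14.1 CPM in A375. MAX had 29.0 and 18.5 CPM in the MIR211 line and 35.4 and 26.1 CPM in A375 (log2 -0.37, SE 0.30), with overlapping lines. MXD4 averaged 19.2 ± 3.87 CPM in the MIR211 line and 18.3 ± 3.34 CPM in A375, and MNT, the most broadly expressed MYC antagonist, averaged 5.98 ± 1.41 CPM in the MIR211 line and 6.12 ± 0.933 CPM in A375. MLXIP, with the most seed matches and the longest 3′ UTR among the members, had 13.6 and 14.6 CPM in the MIR211 line. Both were under the 15.7 and 19.1 CPM of A375. Its log2 difference of -0.31 (SE 0.20, edgeR adjusted p = 0.689) did not pass. MGA had 123 and 114 CPM in the MIR211 line, above the 111 and 112 CPM of A375, and did not pass either (edgeR adjusted p = 0.926). With 2 libraries per line, lines often separate with no difference behind it. The share of all genes without overlap was not counted, so nothing is read from the separation of MGA or MLXIP.

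BRIC-seq asked how fast each labelled message was lost. The mean slope of log2 CPM per hour over both lines passed the test for 7 of 9 members (77.8%), beside 64.3% of all genes. With TMM scaling, 4 members fell, where 34.4% of all genes fell, and 3 rose, where 29.9% of all genes rose. A slope is read against the scaled sum of all labelled RNA, and that sum also shrinks over a chase, so it is not an absolute decay rate. Scaling moved every slope: the median of all genes was -0.04 with TMM, -0.20 with total counts, -0.52 with 10 glycolytic mRNAs held constant and -0.75 with the 1 row of the table that names no gene held constant. That row had only 3 counts at 0 h in each line, and its counting error is not part of the standard errors or p-values under that scaling. All 10 glycolytic mRNAs passed as rising with TMM, with a median slope of 0.43, so holding them constant moves the slopes of all genes down. Of all genes that passed, 53.5% fell with TMM and 79.7% with total counts, where the members counted 6 falls and no rise. Slopes are therefore also given relative to the median of all genes under the same scaling.

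**Figure D2:**
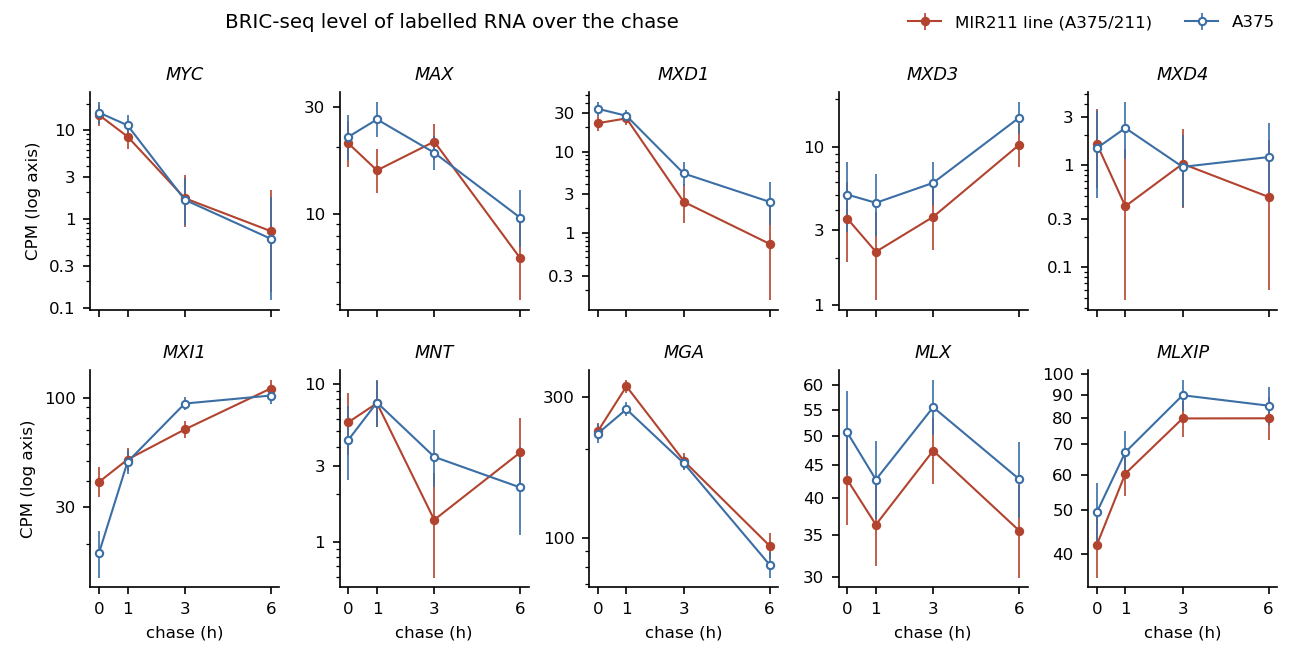
BRIC-seq level of each member in CPM (log axis, a separate range per panel) at 0, 1, 3 and 6 h of chase, with the MIR211 line in filled and A375 in open symbols and bars for the exact 95% Poisson interval, which covers counting error only. MYC and MXD1 dropped steeply in both lines, whereas MXI1 and MXD3 ended above their start on this TMM scale, a direction that turned with glycolytic mRNAs held constant.

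MYC had the steepest slope of the 9 members averaged over both lines, although MXD1 was steeper in the MIR211 line. Its labelled level was 14.95, 8.53, 1.72 and 0.735 CPM at 0, 1, 3 and 6 h in the MIR211 line and 15.9, 11.4, 1.66 and 0.603 CPM in A375. Both lines were high at 0 and 1 h and low at 3 and 6 h, and the 6 h values rest on 3 counts in each line. At 6 h, 4.92% of the 0 h level was left in the MIR211 line (95% conditional binomial interval 0.984% to 15.1%) and 3.79% in A375 (0.758% to 11.7%). The mean slope was -0.84 log2 per hour (SE 0.09, edgeR adjusted p = 8.53e-05), a halving every 1.18 h on this scale. Only 0.803% of tested genes had a slope as low or lower.

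MXD1 (ENSG00000059728, chromosome 2, 69897688 to 69942945) had 22.3, 25.6, 2.41 and 0.735 CPM over the chase in the MIR211 line and 33.6, 27.5, 5.38 and 2.41 CPM in A375. Its level was near that of 0 h at 1 h and far lower at 3 and 6 h in both lines, and the 6 h values rest on 3 counts in the MIR211 line and 12 in A375. At 6 h, 3.30% of the 0 h level was left in the MIR211 line (0.666% to 9.98%) and 7.18% in A375 (3.61% to 13.0%). The mean slope of -0.79 log2 per hour (SE 0.11, adjusted p = 0.000325) stood at the 1.15th percentile of all genes, and it lay within 1 standard error of the slope of MYC. MYC, the activator, and MXD1, an antagonist that competes for the same partner, were thus the fastest-falling members, at -0.81 and -0.76 relative to the median of all genes.

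MGA and MAX fell more slowly. MGA (ENSG00000174197, chromosome 15, 41621134 to 41773081) had 230, 327, 183 and 94.1 CPM over the chase in the MIR211 line and 226, 273, 180 and 81.2 CPM in A375. Both lines peaked at 1 h and were lowest at 6 h, with 40.9% of the 0 h level left in the MIR211 line (36.2% to 46.2%) and 35.9% in A375 (31.7% to 40.5%). The mean slope of MGA was -0.27 (SE 0.05, adjusted p = 0.00114). MAX (ENSG00000125952, chromosome 14, 65006174 to 65102695, minus strand) had 20.7, 15.7, 21.0 and 6.37 CPM in the MIR211 line and 22.1, 26.4, 18.8 and 9.64 CPM in A375. Its loss lay mostly between 3 and 6 h, and its mean slope of -0.23 (SE 0.06, adjusted p = 0.0128) no longer passed without the 6 h library of the MIR211 line (adjusted p = 0.1), without that of A375 (0.0941) or with no count filter (0.0574).

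MNT and MLX did not pass. MNT (ENSG00000070444, chromosome 17, 2384073 to 2401104, minus strand) had 5.71, 7.53, 1.38 and 3.68 CPM in the MIR211 line and 4.42, 7.61, 3.45 and 2.21 CPM in A375, on 8 to 38 counts a library. Its slope was -0.21 (SE 0.10, adjusted p = 0.0961). MLX (ENSG00000108788, chromosome 17, 42567072 to 42573239) had 42.7, 36.3, 47.4 and 35.5 CPM in the MIR211 line and 50.6, 42.7, 55.5 and 42.8 CPM in A375, with the same order of times in both lines apart from near-equal 1 and 6 h values. Its slope of -0.02 (SE 0.04, adjusted p = 0.643) lay at the 51.8th percentile of all genes. MNT and MLX passed as falls with total counts, with glycolytic mRNAs held constant and with the row that names no gene held constant. So did 7269, 12055 and 13450 of all 13703 genes under these scalings, in that order.

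MXI1, MXD3 and MLXIP rose with TMM scaling, MXI1 and MXD3 kept a positive slope that missed the threshold with total counts, and all 3 slopes were negative with glycolytic mRNAs or the row that names no gene held constant. MXI1 (ENSG00000119950, chromosome 10, 110207605 to 110287365) had 39.4, 50.6, 70.5 and 111 CPM over the chase in the MIR211 line and 17.96, 49.3, 93.8 and 102 CPM in A375. The 0 h value was higher in the MIR211 line, and the lines were close at 6 h. The 6 h level was 2.81-fold the 0 h level in the MIR211 line and 5.71-fold in A375, and the mean slope was 0.29 (SE 0.06, adjusted p = 0.00405). MXD3 (ENSG00000213347, chromosome 5, 177301461 to 177312757, minus strand) had 3.53, 2.18, 3.62 and 10.3 CPM in the MIR211 line and 5.00, 4.44, 5.93 and 15.3 CPM in A375, with the highest value at 6 h in both lines. Its mean slope was 0.30 (SE 0.06, adjusted p = 0.00254). MXD3 shares 926 exonic bases with RAB24, a small GTPase gene on the same strand (slope 0.18, SE 0.05), and 1148 with PRELID1, a mitochondrial lipid transfer gene on the other strand (slope 0.34, SE 0.04), so the source of its reads is uncertain.

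MLXIP (ENSG00000175727, chromosome 12, 122078756 to 122147344) had 41.9, 60.3, 79.8 and 79.9 CPM over the chase in the MIR211 line and 49.5, 67.2, 89.8 and 85.2 CPM in A375. Both lines levelled off after 3 h. The mean slope was 0.13 (SE 0.04, adjusted p = 0.0235), and it no longer passed without the 0 h library of the MIR211 line (adjusted p = 0.0772), without that of A375 (0.0849) or with no count filter (0.0807). Relative to the median of all genes, MXD3 lay 0.34, MXI1 0.33 and MLXIP 0.17 higher with TMM, and 0.34, 0.32 and 0.16 higher with glycolytic mRNAs held constant. MLX stayed within 0.02 of that median under those scalings, and MYC, MXD1, MGA, MAX and MNT lay below it.

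**Figure D3:**
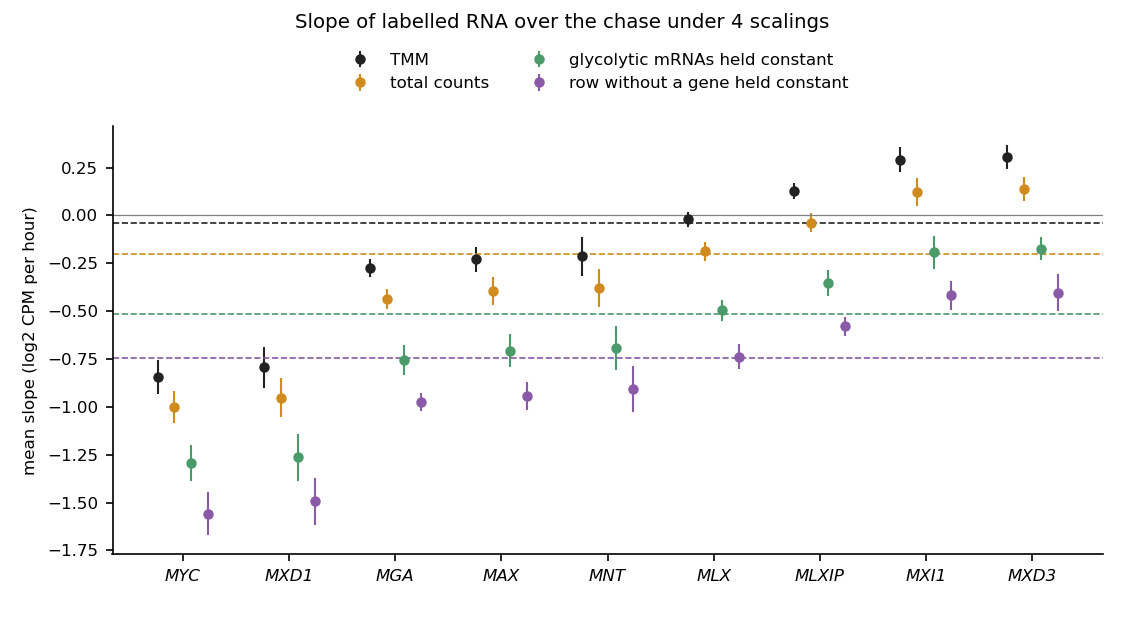
Mean chase slope of 9 members in log2 CPM per hour, with bars of 1 standard error, under 4 scalings, and the median of all genes under each scaling as a dashed line of the same colour. Scaling moved all members together: MXI1 and MXD3 lay at 0.29 and 0.30 with TMM and at -0.19 and -0.17 with glycolytic mRNAs held constant, above the dashed line in both.

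MXD4 (ENSG00000123933, chromosome 4, 2247432 to 2262109, minus strand) was hardly seen among labelled RNA. It had 6, 2, 6 and 2 counts over the chase in the MIR211 line and 5, 11, 7 and 6 in A375, which is 0.397 to 1.63 CPM in the MIR211 line and 0.966 to 2.33 CPM in A375. Its labelled 0 h level was 0.0851 times its RNA-seq level in the MIR211 line and 0.0803 times in A375. That ratio had a median over all genes of 0.555 in the MIR211 line and 0.550 in A375, with MXD4 at percentile 21.2 in both. Among the other members it was highest for MXD1, at 3.40 in the MIR211 line and 3.15 in A375, and for MLXIP, at 2.97 in the MIR211 line and 2.84 in A375. A change of MXD4 over the chase was not detectable at this depth.

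The chase also asked whether a member decayed at a different rate in the 2 lines. No slope difference between the MIR211 line and A375 passed for the 9 members, and 0% of all genes passed in edgeR, where 527 of 13703 genes had an unadjusted p under 0.05 and DESeq2 called 14. None of the 9 members had an unadjusted p under 0.05, and DESeq2 called none of them. The differences ran from -0.28 log2 per hour (SE 0.22) for MXD1, whose slope was -0.97 (SE 0.17) in the MIR211 line and -0.69 (SE 0.14) in A375, to 0.08 (SE 0.20) for MYC, whose slope was -0.80 (SE 0.13) in the MIR211 line and -0.88 (SE 0.13) in A375. The difference of MXD1 was -0.49 without the 6 h library of the MIR211 line and -0.06 without that of A375. MXI1 had a slope of 0.24 (SE 0.09) in the MIR211 line and 0.35 (SE 0.10) in A375, a difference of -0.11 (SE 0.14) on the TMM scale. The other 6 differences lay between -0.01 and 0.06.

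At matched times, the labelled level of 1 of the 9 members passed between the lines (11.1%), where 25.9% of all genes passed and 12.3% were lower in the MIR211 line. That member was MXD3, lower in the MIR211 line at each of the 4 times, with a log2 difference of -0.68 (SE 0.19, edgeR adjusted p = 0.045). It did not pass in DESeq2 (adjusted p = 0.136) or when any 1 of the 8 BRIC-seq libraries was left out (0.0758 to 0.186). Its RNA-seq level ran the other way, at 6.77 ± 2.28 CPM in the MIR211 line and 4.88 ± 3.78 CPM in A375, a difference that did not pass (adjusted p = 0.893). RAB24 and PRELID1, which share bases with MXD3, differed by -0.34 (SE 0.18) and -0.20 (SE 0.18) between the lines and did not pass. MXD1 had a log2 difference of -0.65 (SE 0.25, adjusted p = 0.108) and MLX one of -0.24 (SE 0.10, adjusted p = 0.119), and both reached an unadjusted p under 0.05 (0.0406 for MXD1 and 0.0466 for MLX) but not the threshold. With MXD3 that made 3 of 9 members under an unadjusted p of 0.05, where 39.9% of all genes were. MLXIP, with the most seed matches, differed by -0.16 (SE 0.09, adjusted p = 0.223). The other members with a match to bases 2 to 8 differed by 0.17 (MXI1), 0.13 (MGA) and -0.04 (MNT).

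Other genes of the network were described by list, with counts set beside 29.9% rising and 34.4% falling among all genes, and on the TMM scale whose rises turned as above. Of 8 other MYC and MLX family genes, MYCN was at 0 counts in all 12 libraries and only TFE3 was tested in BRIC-seq, with a slope of 0.08 (SE 0.06) that did not pass. MYCL, the small-cell lung cancer relative of MYC, had 1.33 ± 0.0444 CPM in the MIR211 line and 0.447 ± 0.00712 CPM in A375 in RNA-seq (edgeR adjusted p = 0.18). None of the 7 family genes tested in RNA-seq passed, nor any of the 16 coactivators, 13 turnover factors, 8 corepressors, 9 MGA complex subunits, 52 MYC-activated or 6 MYC-repressed targets. At an unadjusted p under 0.05 stood 1 family gene, 1 turnover gene, 1 MGA complex gene, 5 of the 52 MYC-activated targets and 2 of the 6 MYC-repressed targets, beside 10.9% of all genes. DESeq2 called 1 gene of these lists, the MYC-repressed cell-cycle inhibitor CDKN1A, higher in the MIR211 line (edgeR log2 1.26, adjusted p = 0.127).

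Among the coactivators and partners of MYC, 6 of 16 rose and 3 fell, with a median slope of 0.08 beside -0.04 for all genes. RUVBL2, a helicase of the TIP60 complex, rose by 0.40 per hour (SE 0.04), and CCNT1, the cyclin of the elongation kinase P-TEFb, fell by 0.60 (SE 0.07). Among genes of MYC protein turnover, 3 of 13 rose and 4 fell (median -0.11). The ubiquitin ligase HUWE1 rose by 0.31 (SE 0.02), whereas FBXW7, the ligase subunit that marks phosphorylated MYC for destruction, fell by 0.47 (SE 0.07) and FBXO32 fell by 0.50 (SE 0.06). Of 8 corepressors of MXD and MNT, the deacetylases HDAC1 (0.33, SE 0.03) and HDAC2 (0.28, SE 0.03) and the histone-binding RBBP7 (0.29, SE 0.03) rose, and the scaffold SIN3A (-0.22, SE 0.04) fell. Of 9 partners of MGA in the Polycomb complex PRC1.6, 1 rose and 4 fell: RYBP (-0.47, SE 0.06), RNF2 (-0.37, SE 0.07), E2F6 (-0.36, SE 0.06) and PCGF6 (-0.26, SE 0.05) fell alongside MGA at -0.27.

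Of 48 MYC-activated targets, 25 rose and 4 fell, with a median slope of 0.14. With total counts the same list counted 9 rises and 11 falls, and with glycolytic mRNAs held constant no rise and 42 falls. Among all 13703 genes, 1846 rose and 7269 fell with total counts, and 9 rose and 12055 fell with glycolytic mRNAs held constant. NPM1, a nucleolar chaperone (0.40, SE 0.02), LDHA, lactate dehydrogenase (0.42, SE 0.03), HSPD1, a mitochondrial chaperone (0.38, SE 0.02), and PA2G4 (0.28, SE 0.02) had the smallest p among the rises. Of 6 MYC-repressed targets, none rose and 3 fell: the cell-cycle inhibitors CDKN1B (-0.67, SE 0.16) and CDKN2C (-0.31, SE 0.08) and the stress gene GADD45A (-0.22, SE 0.07). TXNIP, too low at most times for the test, had 2.72, 1.19, 1.03 and 2.94 labelled CPM in the MIR211 line and 16.2, 4.65, 0.966 and 2.01 CPM in A375. ARRDC4 had 1.63, 1.78, 0.690 and 2.70 CPM in the MIR211 line and 8.54, 8.24, 2.48 and 1.81 CPM in A375, and its slope of -0.19 (SE 0.13) did not pass. At 0 and 1 h both MondoA targets were lower in the MIR211 line than in A375, with 1 library per line at each time. At 6 h both lay at 1.81 to 2.94 CPM in either line. There 1 CPM is 4.08 counts in the MIR211 line and 4.98 in A375, so no order between the lines is read at 6 h. The labelled level of ARRDC4 over all times did not pass between the lines (log2 -1.51, SE 0.51, edgeR adjusted p = 0.0765), and that of TXNIP was not tested.

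**Figure D4:**
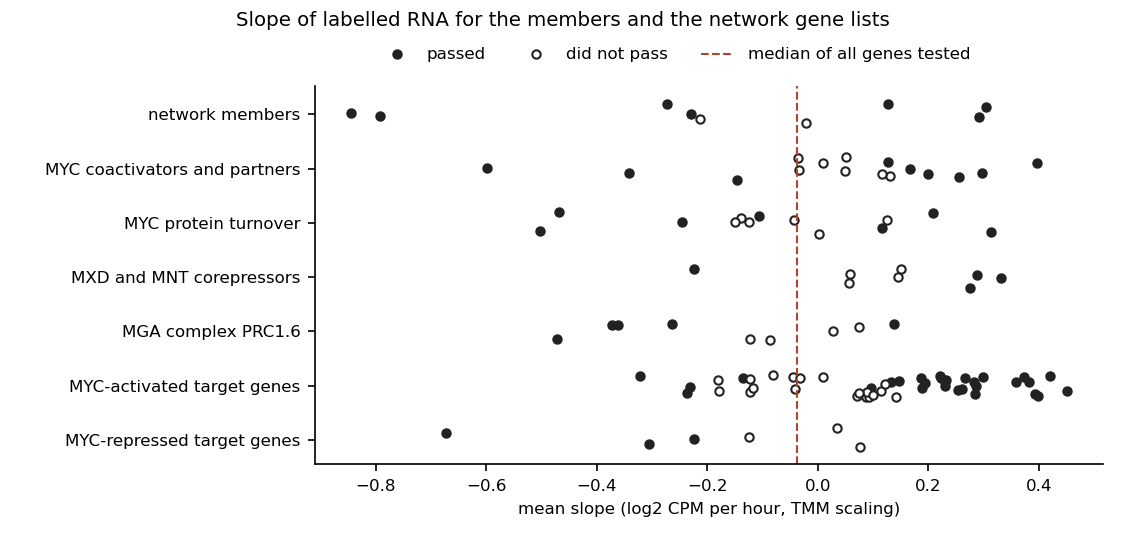
Mean chase slope in log2 CPM per hour with TMM scaling for the members and for 6 lists of network genes, 1 point per gene, filled where the edgeR test passed, with the median of all genes at -0.04 as a dashed line. The members spread from -0.84 to 0.30, wider than any list beside them. The 48 MYC-activated targets had a median of 0.14 on this scale, beside -0.04 for all genes, a direction that turned with glycolytic mRNAs held constant.

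Across the 8 BRIC-seq libraries, the log2 CPM of MYC followed those of MXD1 (Pearson r = 0.95), MGA (0.861) and MAX (0.733) most closely among the members, and ran opposite to MXI1 (-0.889) and MLXIP (-0.869) on the TMM scale. With glycolytic mRNAs held constant the slopes of MXI1 (-0.19) and MLXIP (-0.35) were negative, as was that of MYC (-1.29). The genes most like MYC among 8497 whose mean log2 CPM reached 3 were ZNF234, a zinc finger gene (r = 0.997), TOGARAM1 (0.997), TMCC1 (0.997), EP400P1 (0.995) and SMYD4 (0.992). Their mean slopes ran from -0.58 for TMCC1 to -0.39 for SMYD4, less steep than -0.84 for MYC, since r does not measure the size of a fall. ZNF234 had 39.7, 23.8, 8.10 and 5.39 CPM over the chase in the MIR211 line and 39.2, 32.6, 8.14 and 3.82 CPM in A375. These are descriptions over 8 libraries that share the chase times and the scaling of each library, and EP400P1 is a pseudogene whose reads may be shared with EP400.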

How the data were processed

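The authors deposited 2 tables of raw read counts per gene, 1 for RNA-seq and 1 for BRIC-seq, with no normalization. Reads were aligned with HISAT2 2.1.0 and StringTie was used, per the submitters' processing notes. Those notes name hg19 and the series' design text names hg38, so coordinates printed come from GENCODE 44 (hg38) and RefSeq only, never from the tables. The libraries were made with a stranded kit, per the labels' protocols. How strand and multi-mapping reads were handled is not given in the sources used here, so reads of overlapping genes (MXD3 with RAB24 and PRELID1, MXD1 with SNRNP27, MAX with FNTB, MLX with PSMC3IP) cannot be assigned with certainty. Of 60675 gene IDs, 41209 (67.9%) had a symbol in GENCODE 44. The 1 BRIC-seq row that names no gene took 0.000108% to 0.00122% of a library and stayed out of library sizes and tests. No deposited column was left out.

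The tests were run in edgeR 4.0.16 (R 4.3.3; quasi-likelihood fit, TMM scaling, Benjamini-Hochberg adjustment over all genes tested), with a count filter (filterByExpr with lines as groups, at least 10 counts and a total of at least 15) and an adjusted p under 0.05 as passing. The RNA-seq fit used 4 libraries with the line as its term (2 residual degrees of freedom). The BRIC-seq fits used 8 libraries: the mean slope on hours with line as covariate (5), a slope per line and their difference (4), and the line difference at matched times (3). Since a line has 1 library at each time, the spread is scatter around the fit. A standard error is the absolute log2 value divided by the root of F. CPM use TMM-scaled library sizes. Intervals are at 95% and cover counting error only. The scripts were tested on simulated data.

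Alternatives were DESeq2 1.42.0, RLE scaling, total counts, 10 glycolytic mRNAs held constant, no count filter, a mean CPM of at least 1, each library left out and a replicate block. Scaling to the row that names no gene was added after seeing the data. The members and lists were chosen with earlier results of these data known. Named beside the 10 members were up to 4 genes of smallest p per list in RNA-seq and in the mean slope, and the 5 genes most like MYC over BRIC-seq. TXNIP, RAB24, PRELID1, MYCN and PTPRC, and libraries compared by letter, were chosen after their values were seen.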

Additional observations from a re-analysis of the deposited data

Results flagged for a closer look

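The BRIC-seq table holds 1 row that names no gene and that enters no test of the members. In order of chase time (0, 1, 3 and 6 h), its counts in the MIR211 line were 3, 10, 36 and 81, against 3, 9, 31 and 80 in A375. It drew attention as a signal outside the main measurement that was near alike in both lines, and the RNA-seq table has no such row. What the row counts is not given in the sources used here. Holding it constant turned the slopes of MXI1, MXD3 and MLXIP negative, as the report gives.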

How the results depend on the processing

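Members called in RNA-seq stayed at 0 under each alternative, while all genes called numbered 73 in edgeR, 748 in DESeq2, 237 with no count filter and 0 to 15 with a library left out, where a lone library is assumed to vary like the other line. With the letters a and b as a replicate block, 0 members and 192 genes were called. The labels do not say that the letters pair libraries. Across genes, the difference of library b from library a in the MIR211 line correlated with that in A375 at r = 0.214 over 19258 genes and at r = 0.418 over the 10955 genes with a mean log2 CPM of 3 or more. Leaving out 1 RNA-seq library moved log2 differences that had not passed to either sign: MYC -1.70 to 1.76, MXD3 -0.16 to 1.61, MXD4 -0.15 to 0.26, MXI1 -0.29 to 0.15, MNT -0.29 to 0.19 and MLX -0.17 to 0.015.

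Mean slopes kept 6 to 7 members called with a library left out. MLX turned to 0.0047 with DESeq2 and 0.0041 with RLE scaling, and ran from -0.031 to 0.016 with a library left out. MLXIP turned to -0.038 with total counts. With glycolytic mRNAs held constant, MXD3, MXI1 and MLXIP turned to -0.17, -0.19 and -0.35, and with the row that names no gene held constant to -0.40, -0.42 and -0.58.

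Slope differences had 0 members called throughout. With total counts they were -0.0082 for MXD3, -0.019 for MGA and -0.010 for MLXIP, and with no count filter -0.0022, -0.014 and -0.0023 for the same genes. With glycolytic mRNAs held constant they were 0.0089 for MAX and 0.0040 for MLX, and with the row held constant -0.021 for MYC, -0.049 for MXD3, -0.0049 for MNT, -0.059 for MGA and -0.053 for MLXIP. With a library left out they ran from -0.49 to -0.058 for MXD1, -0.20 to 0.30 for MYC, -0.13 to 0.21 for MAX, -0.28 to 0.20 for MXD3, -0.49 to 0.049 for MXI1, -0.54 to 0.17 for MNT, -0.13 to 0.086 for MGA, -0.094 to 0.042 for MLX and -0.14 to 0.13 for MLXIP.

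For the labelled level, 0 members were called with DESeq2, RLE scaling, no count filter, a mean CPM of at least 1, the row held constant, or any library left out, and 6 with glycolytic mRNAs held constant, where all genes called numbered 6787 against 3546. With TMM, 6 of the 10 glycolytic mRNAs themselves passed as higher in the MIR211 line and none as lower, with a median log2 difference of 0.39. The median of all genes was -0.53 with them held constant, beside -0.05 with TMM. With glycolytic mRNAs held constant MXI1 turned to -0.31 and MGA to -0.35, and with the row held constant to -0.024 and -0.066. With a library left out all genes called numbered 1739 to 2863, MYC ran from -0.19 to 0.017, MXI1 from -0.087 to 0.45 and MNT from -0.24 to 0.38. The cause of these changes was not tested. Members under about 10 counts at a time (MYC at 6 h in both lines, MXD1 at 6 h and MNT at 3 h in the MIR211 line, MXD4) are limited by depth.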
